A study of Saccharomyces cerevisiae with 26 samples.

Results

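The data analysed here are the 16 retentostat libraries, of 26 RNA sequencing libraries in the series, and the question asked of them is whether expression changed with the same slope while growth slowed under laboratory and under industrial conditions. All cultures were of *Saccharomyces cerevisiae* CEN.PK113-7D, a haploid laboratory strain, grown aerobically with glucose as the limiting nutrient. The members were chosen from the sample labels. 8 libraries came from laboratory conditions (pH 5, inflowing air with 0.04% CO2, cultures S1 and S2) and 8 from industrial conditions (pH 3, gas with 50% CO2, cultures S3 and S4). Each of the 4 cultures was sampled at 4 points. Point 1 was the steady state before the retentostat phase (dilution rate 0.025 per hour), and points 2, 3 and 4 followed during that phase. According to the labels and the study's methods the glucose feed of the laboratory cultures was lowered from 20 to 7.5 g/L for the retentostat phase, the feed of the industrial cultures stayed at 20 g/L, and the industrial medium held 7.5 mg/L iron sulfate and 1.1 mg/L biotin. The 4 libraries of a culture are serial samples of the same vessel and not independent cultures, so each condition rests on 2 cultures. The p-values measure the spread between these libraries, and an exact two-sided permutation test of 2 cultures against 2 cannot go below 0.333.

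In a retentostat the outflow passes a filter that holds the cells back, while medium goes on entering at a constant rate. The growing population has to share a limited supply of sugar, and cells come close to a halt in division while they remain fed. Slowing growth in yeast is commonly accompanied by lower expression of genes for ribosome production and growth and by higher expression of genes for stress tolerance, storage and recycling. Low pH adds a proton load at the plasma membrane and acts on the cell wall, and dissolved CO2 enters cells as a weak acid.

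Values are FPKM as deposited (fragments counted on a gene, scaled by its length and by the size of the library). The slope of a gene is the change in log2(FPKM + 1) per sampling point, with the points numbered 1 to 4 within each condition, and the slope difference is the industrial minus the laboratory slope. A pair of slopes gives the laboratory slope first, and a pair of FPKM values gives culture 1 first. A slope difference was called at an adjusted p under 0.03 (limma, Benjamini-Hochberg over all 5613 genes tested), and a slope within a condition at the same limit with an R2 above 0.8. Levels were not compared between conditions, because the study's methods describe the laboratory RNA as coming from cultures of earlier work and name different sequencing companies for them. pH, CO2, the feed, the medium and the sequencing source changed together and cannot be told apart. The labels number the retentostat samples 1, 5 and 8 in the laboratory and 1, 2 and 3 in the industrial cultures and give no growth rate per library, so that equal point numbers need not mean equal growth rates. According to the study, industrial cultures lost viability. Their off-gas oscillated at steady state, and by the study's account these oscillations subsided after 3 days of the retentostat phase. In such bulk samples, fewer cells of a kind and less RNA per cell cannot be told apart.

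Between 13109387 and 86470818 reads fell on genes per library (13109387 to 16709016 in the industrial libraries, at least 21717268 in the laboratory libraries). 2 libraries stood apart, both from culture 1 at point 2. Their mean squared distance from the fitted lines was 0.245 in the laboratory and 0.177 in the industrial library, against 0.013 to 0.0639 in the other 14. In the laboratory library the cytosolic ribosomal protein genes were lower than in culture 2 at the same point by a median of -0.79 on the log2 scale (all genes 0.14). In the industrial library the ribosome biogenesis genes were lower than in culture 2 by a median of -1.08 (all genes -0.23), and PCK1, the gluconeogenic phosphoenolpyruvate carboxykinase, was at 1365 FPKM against 179.7 to 270.3 in the other 7 industrial libraries. Both libraries were kept, and counts are given with and without them. Markers of MATa cells, the mating type of this strain, were well expressed: the 7 markers summed to 4506 to 10957 FPKM. The 4 markers of MATalpha cells summed to 121 to 648 FPKM, and no marker of either type was at 0 in any library. None of the 11 had a called slope, with 4 and 3 laboratory and 1 and 2 industrial slopes at an unadjusted p under 0.05, or a called slope difference, with 0 at an unadjusted p under 0.05 (limma). The 13 sporulation genes summed to 214 to 234 FPKM at laboratory point 1 and 298 to 386 at later points, and to 148 to 161 and 211 to 266 in the industrial cultures. Among the 9 of these that were tested, HOP1, a protein of meiotic chromosome axes, had a called difference (0.30 and -0.03). After scaling of the libraries to a common median 1 of the 9 was called higher and 0 lower, so that HOP1 was not called. The part of these markers in the results was not tested.

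More genes rose than fell over the sampling points in both conditions. 537 genes rose in the laboratory cultures (9.57% of those tested) and 86 fell (1.53%). In the industrial cultures 133 genes rose (2.37%) and 57 fell (1.02%). Of these, 46 rose in both conditions and 10 fell in both, and only ATO2 and ZPS1 were called in both with opposite signs. The slope difference was called for 143 genes, 55 with the higher slope in the industrial cultures (0.98%) and 88 with the lower slope there (1.57%). Over all genes tested, both industrial culture slopes lay above both laboratory slopes in 1263 (22.5%) and below in 2252 (40.1%). All 143 called genes had culture slopes apart in this way. The call rests on the same slopes, so this is no added support. Across genes, which are not independent replicates, the laboratory and industrial slopes had a Pearson correlation of 0.499, against 0.826 between the laboratory cultures and 0.832 between the industrial cultures. The median slope of all genes was 0.07 in the laboratory and 0.03 in the industrial cultures, and the median difference was -0.04. After scaling of the libraries to a common median, the split changed: 288 genes rose and 229 fell in the laboratory cultures, 142 rose and 93 fell in the industrial cultures, and 106 slope differences were higher and 59 lower in the industrial cultures.

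**Figure D1:**
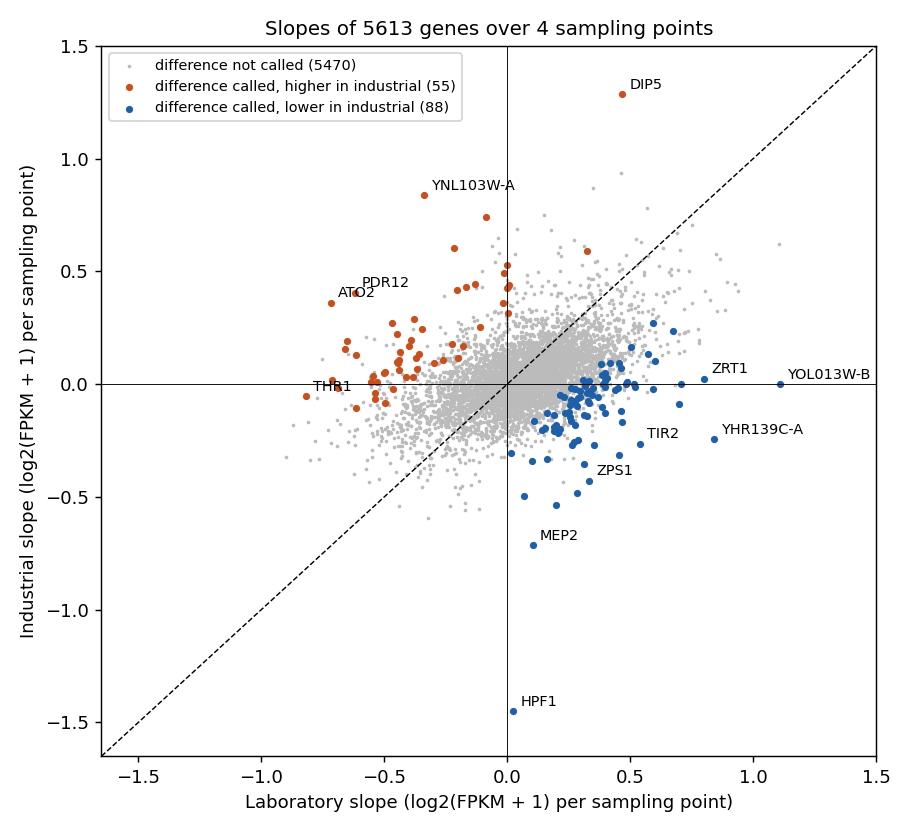
Slope of log2(FPKM + 1) per sampling point in the laboratory (x axis) and the industrial cultures (y axis) for the 5613 genes tested; the dashed line marks equal slopes. The 55 genes in orange and 88 in blue have a called slope difference, HPF1 lies lowest on the y axis at -1.45, and ATO2 and ZPS1 lie in opposite quadrants.

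Of the 88 genes with the lower industrial slope, 67 had a positive laboratory slope and an industrial slope at or below zero, and 46 were called as rising in the laboratory. Of the 55 with the higher industrial slope, 43 had a laboratory slope at or below zero and a positive industrial slope, and 14 were called as rising in the industrial cultures. The laboratory slope was the steeper one in 72 of the 88 and in 40 of the 55. Laboratory slopes were also more widely spread over all genes tested, with an SD of 0.223 against 0.152. The steeper laboratory slopes are thus not particular to the called genes. Without both libraries that stand apart, 927 slope differences were called (272 higher and 655 lower), and they included all 143. With points 2 to 4 only, limma called 0 differences (1107 at an unadjusted p under 0.05), in a fit with 3 points per culture. All 143 kept their sign in that fit, which shares its libraries with the call. Leaving out a single library moved at least 1 of the 2 counts by over 1.5 times for each of the 16 libraries, with 5 to 166 higher and 8 to 364 lower. Leaving out a whole culture gave 0 to 150 higher and 1 to 210 lower. 8 of the 36 named genes with a called difference stayed called without each library in turn, 6 of them (ATO2, HPF1, MEP2, PDR12, TIR2 and ZPS1) with industrial means of 10 FPKM or more. The other 2, YHR139C-A and YOL013W-B, passed the filter on low values only through the laboratory cultures, so their calls are no sign of stability.

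The change was not spread evenly over the points. In the laboratory cultures the mean absolute change per gene was 0.36 on the log2 scale from point 1 to 2, 0.39 from 2 to 3 and 0.11 from 3 to 4. In the industrial cultures it was 0.32, 0.24 and 0.15. Without the libraries that stand apart the laboratory steps were 0.26, 0.36 and 0.11 and the industrial steps 0.28, 0.16 and 0.15. The largest of these steps thus came between points 2 and 3 in the laboratory and between points 1 and 2 in the industrial cultures, and only 2 and 5 genes changed by more than 1 log2 unit in the last step.

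**Figure D2:**
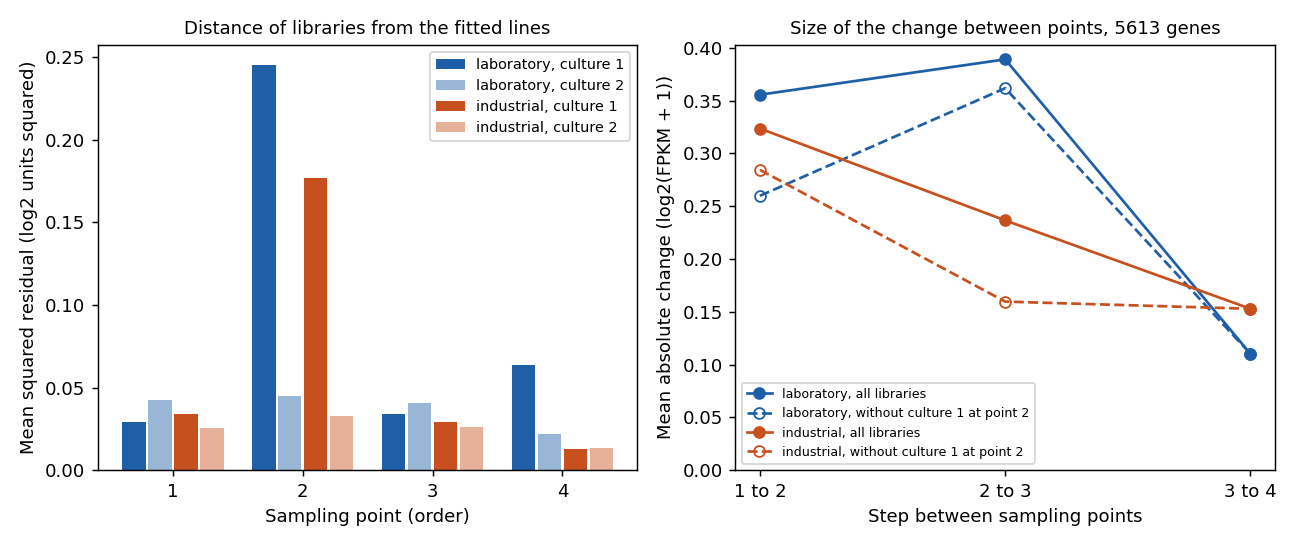
Left, mean squared residual of each of the 16 libraries from the fitted lines by sampling point, with culture 1 at point 2 highest in both conditions (0.245 and 0.177). Right, mean absolute change in log2(FPKM + 1) between neighbouring points over 5613 genes, with all libraries (solid) and without culture 1 at point 2 (dashed); the last step was 0.11 in the laboratory and 0.15 in the industrial cultures.

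Transport of ammonium and of weak acids included genes whose slopes crossed between the conditions. ATO2 (YNR002C, chromosome XIV, 633008 to 633856, minus strand, R64) encodes a plasma-membrane protein of the acetate and ammonium transporter family. ATO2 was at 1855 and 2108 FPKM in the laboratory cultures (culture 1, then culture 2) at point 1, 1351 and 1618 at point 2, 494 and 578 at point 3, and 558 and 499.6 at point 4. Under industrial conditions ATO2 was at 1033 and 816 FPKM at point 1, 1160.3 and 1115 at point 2, 2066 and 1489 at point 3, and 1825 and 1834 at point 4. It thus fell in both laboratory cultures and rose in both industrial cultures, with slopes of -0.72 and 0.36 and a difference of 1.08 ± 0.13 (SE, adjusted p = 0.00037). PDR12 encodes the plasma-membrane pump that exports carboxylate anions. Its laboratory values were 554 and 766 FPKM at point 1, 206 and 439.6 at point 2, 258 and 202 at point 3, and 237 and 121 at point 4. The industrial values of PDR12 were 266 and 203, 275 and 323, 487 and 461, and 490.4 and 530.1 FPKM at points 1 to 4. The slopes were -0.62 and 0.41, the difference was 1.03 ± 0.15 (SE, adjusted p = 0.00303), and the laboratory slope itself missed the R2 limit.

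MEP2, a high-affinity ammonium permease that also signals nitrogen limitation, moved the other way. MEP2 was at 123 and 119, 83.0 and 121, 134 and 159, and 105 and 176 FPKM at laboratory points 1 to 4. Under industrial conditions MEP2 went from 1009 and 850.4 FPKM at point 1 through 405 and 694 and then 346 and 280.4 to 226 and 199 at point 4. MEP2 fell in the industrial cultures, with culture slopes of -0.67 and -0.76, and its laboratory slope was not called. The slopes were 0.10 and -0.71, with a difference of -0.82 ± 0.13 (SE, adjusted p = 0.0032). Of the 11 ammonium genes tested, ATO2 and MEP2 were the called ones (limma). Of 32 weak-acid response genes, 3 had a higher industrial slope and 0 a lower one (1 at an unadjusted p under 0.05), namely ATO2, PDR12 and TPO1, a polyamine exporter with slopes of -0.44 and 0.14. 6 of the 32 rose in the industrial and 0 in the laboratory cultures (12 laboratory slopes at an unadjusted p under 0.05). Over all genes tested, 2.37% rose in the industrial and 9.57% in the laboratory cultures. Differences were called higher for 0.98% and lower for 1.57% of all genes. The 6 were ATO2, PDR12, HSP30, PHM8, TPO2 and AZR1, with HSP30, a stress-induced membrane protein, at an industrial slope of 0.69. The median difference of the list was 0.01. Without both libraries that stand apart 6 differences were higher and 0 lower (272 and 655 of all 5613 genes).

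**Figure D3:**
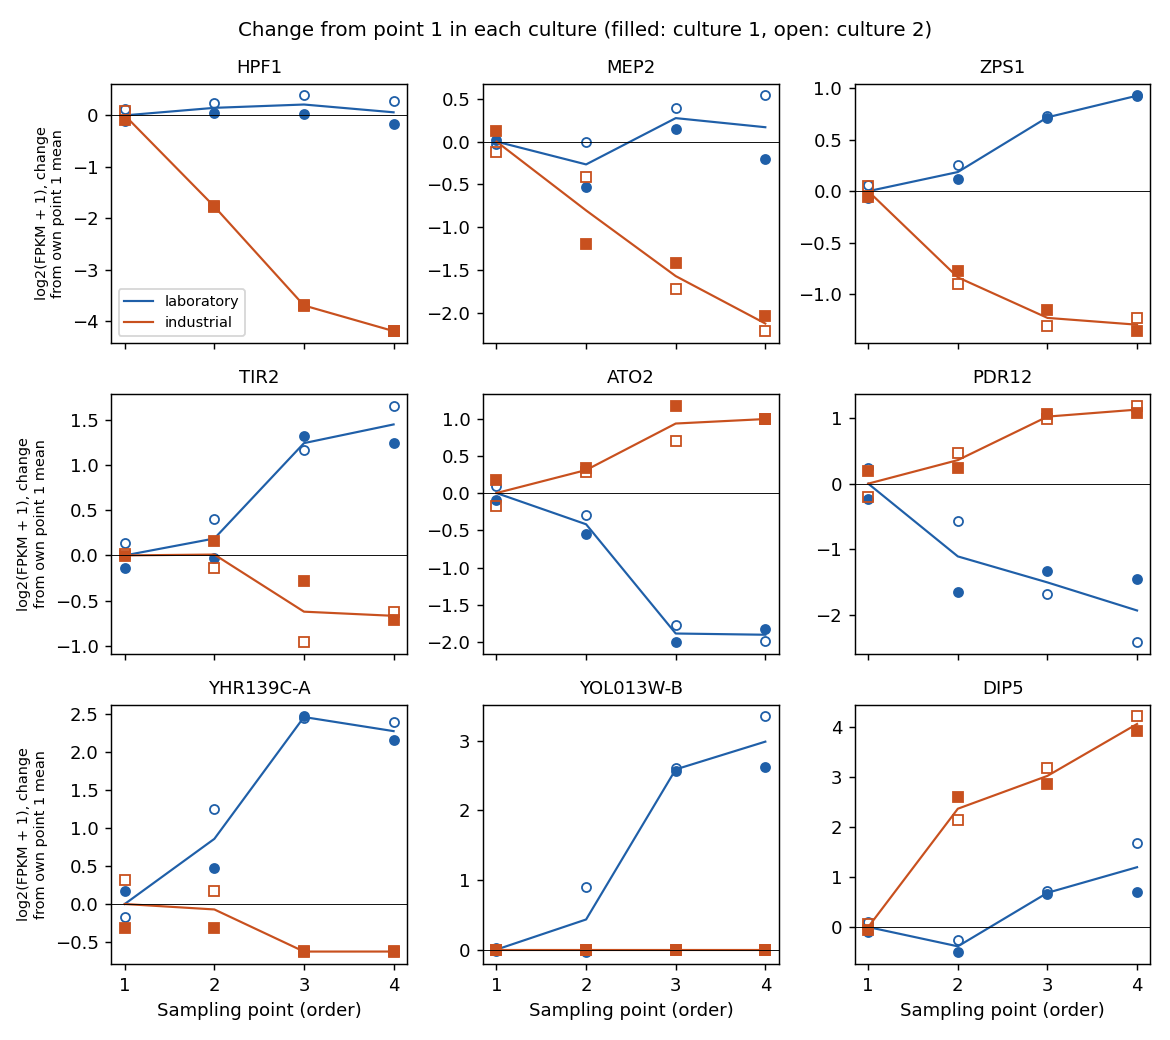
Change in log2(FPKM + 1) from the condition's own point 1 mean (y axis) by sampling point (x axis) for 9 genes; lines are means of 2 cultures, filled and open symbols are cultures 1 and 2. ATO2, PDR12 and ZPS1 move in opposite directions in the laboratory (blue) and industrial (orange) cultures, YOL013W-B was listed at 0 in all industrial libraries, and DIP5 has slopes of 0.47 (not called) and 1.29.

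Cell-wall mannoproteins are glycoproteins of the outer wall layer, attached through a lipid-derived anchor or, for the Pir proteins, through alkali-labile bonds to glucan. Of 37 tested, 5 had a higher industrial slope (PIR1, CCW14, CWP1, AGA1 and SVS1) and 2 a lower one (HPF1 and TIR2). The shares over all genes were 0.98% and 1.57%. The median slope of the list was -0.24 in the laboratory and 0.05 in the industrial cultures, a median difference of 0.22 against -0.04 for all genes. Both industrial culture slopes lay above both laboratory slopes for 25 of the 37 (67.6%, against 22.5% of all genes) and below them for 7. Without the libraries that stand apart 11 were called higher and 3 lower (272 and 655 of all 5613 genes). The added ones were CIS3, HSP150, SED1, PIR3, TOS6 and CRH1 on the higher and FLO10 on the lower side.

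PIR1, a Pir protein singled out after its values were seen, was at 445 and 458, 372 and 279.9, 180.1 and 147, and 188 and 142 FPKM at laboratory points 1 to 4. Its industrial values stayed between 273 and 338 FPKM. PIR1 thus fell in the laboratory (slope -0.54) and the industrial slope of -0.06 was not called, a difference of 0.47 ± 0.10 (SE, adjusted p = 0.019). SVS1, a wall protein linked to vanadate resistance, had laboratory values of 157 and 161, 154 and 67.1, 43.8 and 30.1, and 63.5 and 36.0 FPKM. Its industrial values were 67.7 and 64.2, 89.9 and 77.2, 73.1 and 59.97, and 106 and 99.0 FPKM, and the difference was 0.82 ± 0.19 (SE, adjusted p = 0.024). AGA1, the anchor subunit of a-agglutinin, had slopes of -0.61 and 0.13 (difference 0.74, adjusted p = 0.018). CWP1, a wall protein singled out after its values were seen, rose in the industrial cultures, with slopes of -0.13 and 0.44 (difference 0.58, adjusted p = 0.0238, or 0.0331 with culture as a replicate block). CIS3, another Pir protein and likewise singled out after its values were seen, dropped in the laboratory from 404 and 405 FPKM at point 1 to 74.6 and 113 at point 2. Its slope difference of 0.86 ± 0.24 (SE) missed the limit with all libraries (adjusted p = 0.0398) and passed it without those that stand apart (0.92, adjusted p = 0.00896).

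HPF1, a mannoprotein known for reducing protein haze in wine, had the steepest slope of the 5613 genes in the industrial cultures (YOL155C, chromosome XV, 28703 to 31606, minus strand, R64). HPF1 was at 509.8 and 574 FPKM at industrial point 1, 156 and 159 at point 2, 41.4 and 40.3 at point 3, and 28.7 and 28.5 at point 4. Laboratory values of HPF1 lay between 121 and 178 FPKM at every point. The industrial slope was -1.45, the laboratory slope 0.02, and the difference -1.47 ± 0.14 (SE, adjusted p = 2.5e-05). TIR2, of the Tip1 family of mannoproteins that are induced by cold and lack of oxygen, rose in the laboratory from 25.4 and 31.0 FPKM at point 1 through 27.5 and 37.5 and then 71.6 and 64.1 to 67.9 and 90.4 at point 4. In the industrial cultures TIR2 was at 24.7 and 25.1, 27.8 and 22.6, 20.2 and 12.3, and 14.8 and 15.8 FPKM. The culture slopes were 0.55 and 0.53 in the laboratory and -0.26 and -0.27 in the industrial cultures, where the slope was not called, with a difference of -0.80 ± 0.12 (SE, adjusted p = 0.00303).

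Genes that build or sense the wall had calls on both sides. Among 46 genes of glucan and chitin synthesis and remodelling, 2 had a higher industrial slope and 0 a lower one (6 at an unadjusted p under 0.05). The called shares over all genes were 0.98% and 1.57%. EXG1, the major exo-1,3-beta-glucanase, was at 611 and 609 FPKM at laboratory point 1 and 311 and 233 at point 4, and at 708 and 631 and then 882 and 941 in the industrial cultures. The difference was 0.59 ± 0.13 (SE, adjusted p = 0.022). KNH1, which takes part in beta-1,6-glucan synthesis, had slopes of -0.26 and 0.11. Of 31 genes of the cell wall integrity pathway, PRM5, a known target of the pathway, had the higher industrial slope (0.00 and 0.31) and SDP1, a phosphatase that acts on the pathway's kinase Slt2, the lower. SDP1 rose in the laboratory from 28.6 and 28.9 FPKM to 72.8 and 83.0 at point 4 and lay between 31.7 and 41.4 FPKM in the industrial cultures, a difference of -0.48 ± 0.09 (SE, adjusted p = 0.013).

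The called genes of zinc and iron supply had lower industrial slopes. ZPS1 (YOL154W, chromosome XV, 34658 to 35407, plus strand, R64) encodes a wall-anchored protein that is induced at low zinc. In the laboratory ZPS1 rose from 40.9 and 44.8 FPKM through 46.6 and 51.2 and 70.5 and 71.5 to 82.2 and 82.5 at point 4, and in the industrial cultures it fell from 76.4 and 82.2 through 45.9 and 42.0 and 35.0 and 31.5 to 30.2 and 33.2. Its slopes were called in both conditions (0.33 and -0.43), with a difference of -0.76 ± 0.08 (SE, adjusted p = 0.00016). ZRT1, the high-affinity zinc transporter, was at 21.9 and 25.3, 16.3 and 28.1, 86.4 and 83.4, and 86.3 and 114 FPKM at laboratory points 1 to 4. All 8 industrial values of ZRT1 were at or below 0.201 FPKM, which is near 0 on this scale, so the difference of -0.78 ± 0.16 (SE, adjusted p = 0.019) describes the laboratory cultures alone. MNT2, a mannosyltransferase singled out after its values were seen, had slopes of 0.27 and -0.27 (difference -0.53 ± 0.10, SE, adjusted p = 0.0125), with industrial values of 1.35 to 3.57 FPKM, so that it passed the filter only through the laboratory cultures, as ZRT1 did. In a list of 27 zinc-responsive genes put together after these values were seen, with 26 tested, 3 had a lower industrial slope and 0 a higher one (0 at an unadjusted p under 0.05). Without the libraries that stand apart 9 were lower and 0 higher (655 and 272 of all 5613 genes). The list was drawn up with these same values known, so its counts are a description and no support.

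The letters that the zinc-responsive activator Zap1 is known to bind are shown because ZRT1 carries them next to its start in the R64 genome. The motif searched was ACCTTNAAGGT, which reads the same on both strands, in the 300 bases before each start codon, where it lies in 6 of 5458 promoters of tested genes (0.11%). 1 of the 87 genes with a lower industrial slope and a promoter in the annotation held it, and 1 of 51 with a higher slope. The ZRT1 match starts 204 bases before the start codon on the gene's strand, and the 30 bases at chrVII:20765-20794, plus strand, are printed with the motif in capitals.
ZRT1: acatatttgACCTTGAAGGTcatggaaagt

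Of 36 iron uptake and siderophore genes, 2 had a lower industrial slope and 0 a higher one (3 at an unadjusted p under 0.05). The called shares over all genes were 1.57% and 0.98%. After scaling to a common median 1 iron gene was lower and 1 higher. ENB1, a transporter of the siderophore enterobactin, had slopes of 0.28 and -0.48 (difference -0.77 ± 0.19, SE, adjusted p = 0.0297, or 0.0321 and not called after that scaling). SMF3, which moves iron out of the vacuole, had slopes of 0.26 and -0.14 (difference -0.40 ± 0.09, SE, adjusted p = 0.0238, or 0.031 with culture as a replicate block). Without the libraries that stand apart 7 iron genes were lower and 1 higher (655 and 272 of all 5613 genes).

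A group of amino acid permeases and of glucose sensing genes rose in the industrial cultures. DIP5, the permease for glutamate and aspartate, was at 1.54 and 1.73 FPKM at industrial point 1, 15.0 and 10.6 at point 2, 18.2 and 23.0 at point 3, and 38.7 and 47.9 at point 4. Its laboratory values were 57.9 and 67.3, 43.6 and 51.8, 99.0 and 103, and 103 and 203 FPKM. The slope was positive in all 4 cultures and called in the industrial ones, with slopes of 0.47 and 1.29 and a difference of 0.82 ± 0.19 (SE, adjusted p = 0.0247, or 0.0353 with culture as a replicate block). Of 27 amino acid permease genes, 6 rose in the industrial cultures (BAP2, TAT1, AGP1, GNP1, PTR2 and DIP5) and 0 fell, and 3 rose and 1 fell in the laboratory. Over all genes, 2.37% rose and 1.02% fell in the industrial cultures, and 9.57% rose and 1.53% fell in the laboratory. The laboratory rises of the list lay near that share. The median slope of the list was 0.11 in the laboratory and -0.01 in the industrial cultures. The 6 genes that rose in the industrial cultures are among the known targets of the extracellular amino acid sensor that contains Ssy1. AGP1, a broad amino acid permease, had an industrial slope of 0.94 and a laboratory slope of 0.46, and its difference was not called (adjusted p = 0.0723). BAP2, for branched-chain amino acids, had a called difference (-0.02 and 0.36). ALP1, an arginine transporter, had a lower industrial slope (0.19 and -0.19, adjusted p = 0.0247), which was not called after scaling to a common median (adjusted p = 0.0379). Its industrial values were 2.59 to 5.42 FPKM, so that it passed the filter on low values only through the laboratory cultures. With that scaling 3 permease differences were higher and 0 lower (6 lower at an unadjusted p under 0.05 without scaling).

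HXT7, a high-affinity glucose transporter, was at 729.6 and 739 FPKM at industrial point 1, 1027 and 1024 at point 2, 1266 and 1327 at point 3, and 1791 and 1976 at point 4. Laboratory values of HXT7 lay between 904 and 1451 FPKM with an uncalled slope of 0.01, and the difference was 0.43 ± 0.09 (SE, adjusted p = 0.019). HXT7 is nearly identical to HXT6, and reads that matched both were removed by the authors, so its value is uncertain. Of 17 hexose transporter and glucose sensing genes tested, 6 rose in the industrial and 0 in the laboratory cultures (7 at an unadjusted p under 0.05, limma). Over all genes, 2.37% rose in the industrial and 9.57% in the laboratory cultures. The 6 were HXT7, the low-affinity transporter HXT1 (0.58), and MTH1, STD1, MIG2 and MIG3, regulators in the pathway from the glucose sensors, at 0.36 to 0.53. HXT7 was the single gene of the list with a called difference. Without the libraries that stand apart 3 were called, all higher (272 of all 5613 genes). HXT3, a low-affinity transporter singled out after its values were seen, differed between the laboratory cultures themselves, with 48.9 and 715 FPKM at point 1, 59.7 and 955 at point 2, 247 and 609 at point 3, and 316 and 407 at point 4. Its industrial values went from 319 and 335 at point 1 to 2003 and 1859 FPKM at point 4, and its difference was not called (adjusted p = 0.52).

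Amino acid synthesis genes had negative median slopes in both conditions. Of 62 genes, 6 fell and 1 rose in the laboratory and 3 fell and 0 rose in the industrial cultures, with medians of -0.21 and -0.12. Over all genes, 1.53% fell and 9.57% rose in the laboratory, and 1.02% fell and 2.37% rose in the industrial cultures. THR1, the homoserine kinase of threonine synthesis, was at 115 and 138, 111 and 88.9, 28.2 and 24.0, and 33.6 and 24.4 FPKM at laboratory points 1 to 4. Its industrial values lay between 25.4 and 45.1 FPKM. The slopes were -0.82 and -0.05 and the difference 0.76 ± 0.16 (SE, adjusted p = 0.019). ARG3, the ornithine carbamoyltransferase of arginine synthesis, had slopes of -0.50 and -0.08 (adjusted p = 0.017).

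Cytosolic and mitochondrial ribosomal protein genes had median differences of opposite sign (-0.18 and 0.10). The cytosolic list had a median slope of 0.09 in the laboratory and -0.10 in the industrial cultures. These medians were 0.01 and -0.13 after scaling to a common median and 0.05 and -0.12 without the libraries that stand apart. The change was not steady. Median changes from point 1 were -0.57, 0.09 and 0.10 at laboratory points 2 to 4, and -0.45, -0.32 and -0.38 at the industrial ones. At laboratory point 2 the 2 cultures were at -0.93 and -0.19. Of 137, limma called 0 slope differences with all libraries (1 higher and 31 lower at an unadjusted p under 0.05). Without the libraries that stand apart 53 of the 137 were lower and 0 higher, against 655 and 272 of all 5613 genes. Both industrial culture slopes lay below both laboratory slopes for 109 of the 137 (79.6%, against 40.1% of all genes). RPS27B, a small-subunit protein singled out after its values were seen, was at 520.4 and 477 FPKM at laboratory point 1, 206 and 482 at point 2, 982 and 955 at point 3, and 1009 and 1052 at point 4. The value of 206 came from the laboratory library that stands apart. Industrial values of RPS27B lay between 770.1 and 1162 FPKM, and the difference of -0.49 had an adjusted p of 0.117, or 0.00383 without the libraries that stand apart. Several of these genes are paralog pairs, between which reads cannot always be assigned. SUI1, the initiation factor eIF1, rose in the laboratory from 565 and 506 through 587 and 658 and 1435 and 1504 to 1404 and 1848 FPKM, and went from 1304 and 1263 to 1535 and 1606 in the industrial cultures (difference -0.50 ± 0.10, SE, adjusted p = 0.018). Of 120 ribosome biogenesis genes, limma called 0 differences (1 higher and 1 lower at an unadjusted p under 0.05), with medians of -0.05 and 0.02. The median difference of that list was 0.07, and 0.00 without the libraries that stand apart.

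Mitochondrial ribosomal proteins, which translate the few proteins encoded in mitochondrial DNA, had 6 higher industrial slopes among 74 and 0 lower ones (1 at an unadjusted p under 0.05). The called shares over all genes were 0.98% and 1.57%. The 6 were MRPL4, MRP4, MRP20, IMG1, MRPL11 and MRPL40. MRPL4 was at 97.9 and 121, 89.7 and 73.7, 33.5 and 23.6, and 44.5 and 21.2 FPKM at laboratory points 1 to 4. Its industrial values lay between 48.1 and 76.9 FPKM. Neither slope of MRPL4 was called (-0.69 and -0.01), while the difference was 0.67 ± 0.16 (SE, adjusted p = 0.0291, or 0.0316 with culture as a replicate block). MRP4 had a difference of 0.55 (adjusted p = 0.0241). In the list as a whole 8 of 74 genes rose and 1 fell in the laboratory, where 9.57% and 1.53% of all genes did. In the industrial cultures 2 rose, where 2.37% of all genes did. These counts lay near the shares of all genes. The median slopes of the list were 0.06 and 0.16 (-0.02 and 0.13 after scaling to a common median). Without the libraries that stand apart, 42 rose in the industrial cultures (402 of all 5613 genes). In that setting 18 differences were higher and 1 lower (272 and 655 of all genes). OXA1, which inserts proteins into the inner membrane (difference 0.54, adjusted p = 0.011), and the ferredoxin YAH1 (0.55, adjusted p = 0.0234, or 0.031 with the block) also had higher industrial slopes and were singled out after their values were seen.

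Chaperones had the largest positive median difference of the 32 lists. The 37 heat-shock and chaperone genes had median slopes of -0.17 in the laboratory and 0.13 in the industrial cultures, a median difference of 0.27. The course was not steady, with median changes from point 1 of 0.16, -0.19 and -0.40 at laboratory points 2 to 4. At the industrial points these were 0.36, 0.38 and 0.37. Both industrial slopes lay above both laboratory slopes for 29 of the 37 (78.4%, against 22.5% of all genes). HSP60, the mitochondrial chaperonin, was the called one, at 1181 and 1160.2, 892 and 1043, 653 and 417, and 698 and 376 FPKM at laboratory points 1 to 4, and 438 and 433, 613 and 491, 654 and 607, and 527 and 516 FPKM in the industrial cultures. Its difference was 0.54 ± 0.13 (SE, adjusted p = 0.0283, or 0.0308 with culture as a replicate block), and neither of its slopes was called. Without the libraries that stand apart 8 were higher and 0 lower (272 and 655 of all 5613 genes), also HSP42, SSE2, SIS1, AHA1, MDJ1, SSC1 and HSP78. Of the 8, HSP60, MDJ1, SSC1 and HSP78 act in mitochondria. HSP42, a small heat-shock protein that sequesters aggregates, was at 928 and 649.6 FPKM at laboratory point 1, 1806 and 931 at point 2, and 419 and 345 at point 4. In the industrial cultures HSP42 went from 198 and 220.3 FPKM at point 1 through 460 and 258 at point 2 to 308 and 333 at point 4. Its difference was not called with all libraries (adjusted p = 0.0675).

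**Figure D4:**
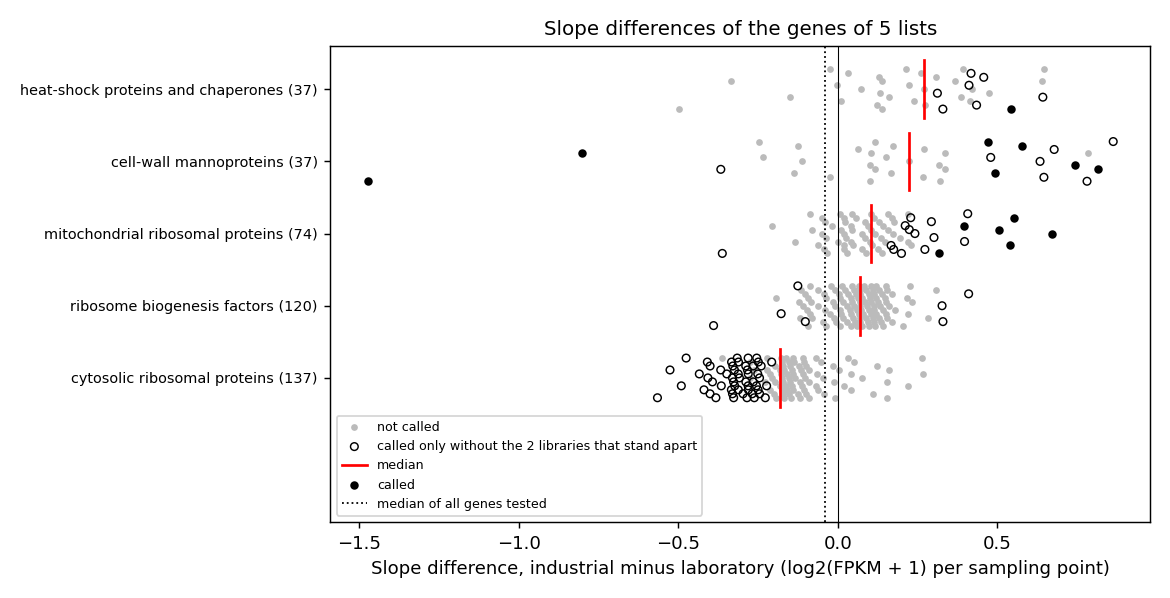
Slope difference (industrial minus laboratory, log2(FPKM + 1) per point) of every tested gene in 5 lists; each point is a gene, red bars are list medians, and the dotted line is the median of all genes (-0.04). Medians were 0.27 for chaperones, 0.22 for mannoproteins, 0.10 for mitochondrial ribosomal proteins, 0.07 for ribosome biogenesis and -0.18 for cytosolic ribosomal proteins, and open circles were called only without the 2 libraries that stand apart.

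Of 44 autophagy genes 8 rose and 0 fell in the laboratory cultures, where 9.57% of all genes rose, and 4 rose there after scaling to a common median. Among the 8 was ATG8, the ubiquitin-like protein of the autophagosome (slope 0.41), and 1 rose and 1 fell in the industrial cultures. ATG27, a membrane protein of the same process, had the single called difference (0.26 and -0.16, adjusted p = 0.0146), but its industrial values were 4.69 to 8.70 FPKM and it passed the filter only through the laboratory cultures. Of 37 proteasome genes 8 rose in the laboratory (slopes 0.17 to 0.33, beside the same 9.57% of all genes), or 3 after scaling to a common median. In the industrial cultures 0 rose (5 slopes at an unadjusted p under 0.05, limma), and 0 differences were called (1 higher and 3 lower at an unadjusted p under 0.05). Rises called in one condition alone are not a called difference.

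The next lists cover carbon metabolism and other processes, and their counts of called differences stand beside 0.98% higher and 1.57% lower over all genes. Of 27 genes for gluconeogenesis, the glyoxylate cycle and C2 compounds, YAT1, the outer-membrane carnitine acetyltransferase, had a called difference (-0.38 and 0.29, adjusted p = 0.022). Without the libraries that stand apart 7 of the 27 were higher, including ACS1, MLS1 and JEN1, and 0 lower (272 and 655 of all 5613 genes). ZWF1, which opens the pentose phosphate pathway, was the called one of 38 oxidative stress genes (-0.37 and 0.12, adjusted p = 0.0297, or 0.0402 with culture as a replicate block). SIC1, the inhibitor that holds cells in G1, was the called one of 42 cyclin, inhibitor and budding genes (-0.18 and 0.17, adjusted p = 0.024). AGA1 and PRM5 were the called ones of 42 mating genes, and SUI1 of 36 translation factors. In 12 further lists limma called 0 slope differences, namely sulfate assimilation, stationary-phase genes, trehalose and glycogen, glycolysis, the tricarboxylic acid cycle, the respiratory chain, beta-oxidation, the proton pump with potassium transport, phosphate uptake, sterols, inositol-regulated phospholipids and histones. Each of the 12 held 0 to 7 genes with a higher and 1 to 7 with a lower industrial slope at an unadjusted p under 0.05. The respiratory chain had medians of 0.08 and -0.11 (0.00 and -0.14 after scaling to a common median), and both industrial culture slopes lay below both laboratory slopes for 27 of its 45 genes, against 40.1% of all genes. Its course was not steady. Median changes of the respiratory chain from point 1 were -0.46, -0.05 and 0.10 at laboratory points 2 to 4, and 0.03, -0.43 and -0.23 at the industrial ones. Glycolysis had 4 falls and 1 rise in the laboratory (1.53% and 9.57% of all genes) and medians of -0.14 and -0.15. Sterol genes had medians of -0.16 and -0.15.

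**Figure D5:**
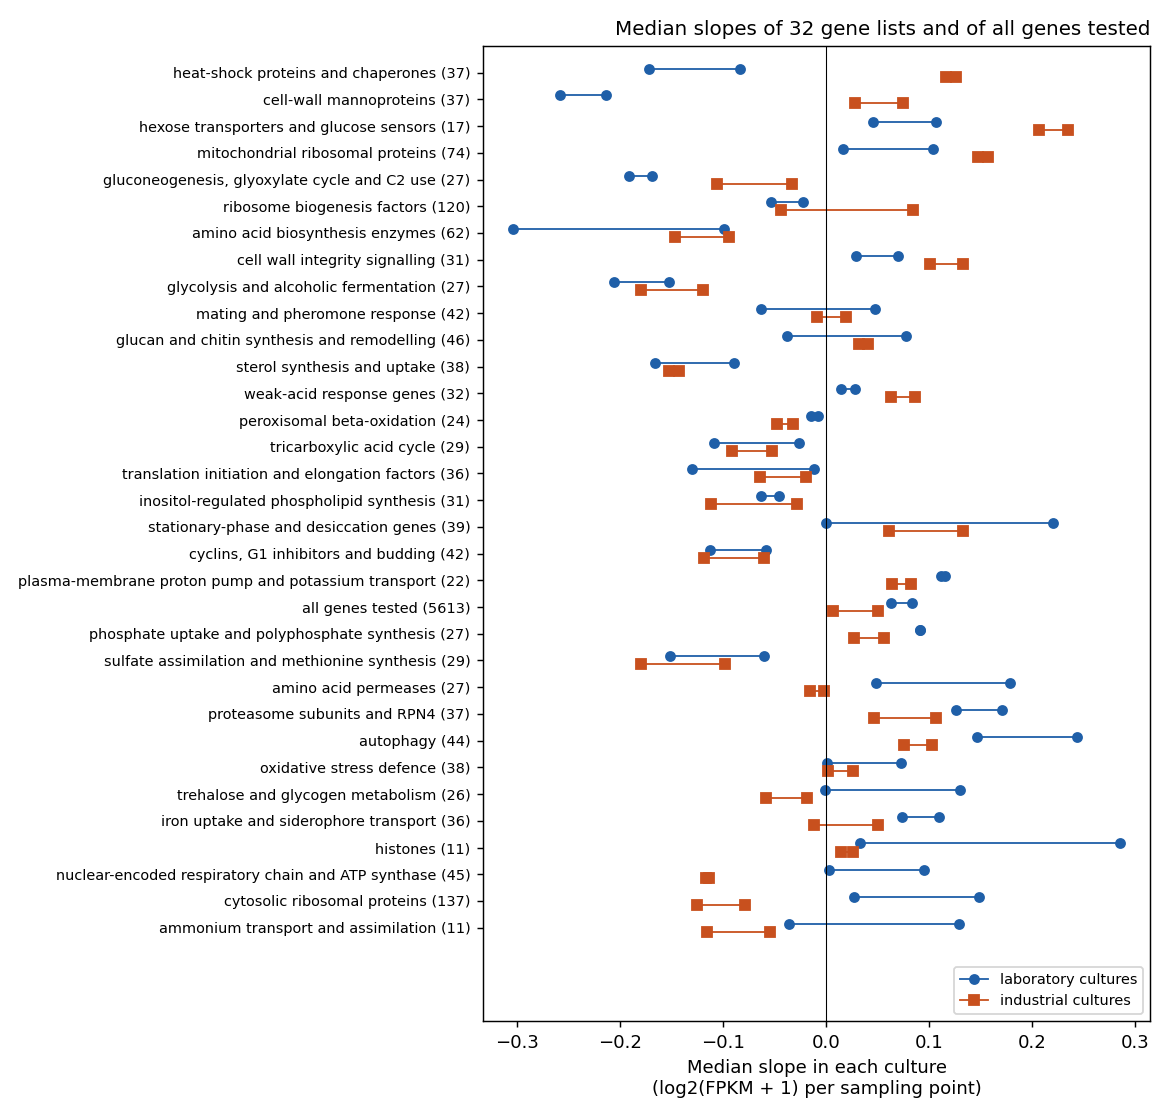
Median slope of each of 32 gene lists and of all genes tested (x axis, log2(FPKM + 1) per point) in the 2 laboratory (blue) and 2 industrial cultures (orange); numbers in parentheses are genes tested, and lists are ordered by the median difference. The culture medians of chaperones, mannoproteins, hexose transporters and mitochondrial ribosomal proteins are higher in the industrial cultures, and those of cytosolic ribosomal proteins (0.15 and 0.03 against -0.08 and -0.13) are lower.

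Some genes had called slopes of the same sign in both conditions. SPO19, a meiosis-specific gene for a spore-related surface protein, rose in both conditions, at 6.87 and 8.16, 20.6 and 18.3, 31.2 and 37.8, and 27.5 and 41.5 FPKM in the laboratory, and 1.34 and 3.40, 2.11 and 3.94, 7.54 and 8.83, and 8.93 and 12.1 FPKM in the industrial cultures. Its slopes were 0.69 and 0.67. YOR011W-A, YOR318C, MIN4 and YOL160W rose in both with laboratory slopes of 0.62 to 0.85 and industrial slopes of 0.50 to 0.59. YOR011W-A lay between 0 and 4.42 FPKM in the industrial cultures, near the floor. Both YOR011W-A and SPO19 passed the filter on low values only through the laboratory cultures, so their industrial rises are at low values. Among the shared falls, TES1, a peroxisomal acyl-CoA thioesterase, had slopes of -0.80 and -0.34, with culture slopes that did not overlap and a difference just outside the limit (adjusted p = 0.031). That difference was called after scaling to a common median (adjusted p = 0.0284) and without the libraries that stand apart (0.0114). QCR2, a core subunit of respiratory complex III, had slopes of -0.55 and -0.32, TYS1, the tyrosyl-tRNA synthetase, -0.43 and -0.33, and ALG3, a mannosyltransferase of N-glycosylation, -0.41 and -0.40. LDO45, a lipid droplet protein that shares 447 bases with LDO16 on the same strand, so that its values are uncertain, had slopes of -0.62 and -0.40. PMA1, the plasma-membrane proton pump, went from 771 and 912 to 360.0 and 137 FPKM in the laboratory and from 1197 and 1006 to 502 and 428 FPKM in the industrial cultures. The laboratory slopes of PMA1 (-0.57, adjusted p = 0.00922) and of its paralog PMA2 (-0.49, adjusted p = 0.000869) passed the p limit and missed the R2 limit, and their industrial slopes of -0.37 and -0.25 passed neither. The difference was not called for PMA1 (difference 0.20 ± 0.23, SE, adjusted p = 0.64), nor for PMA2 (difference 0.24 ± 0.14, SE, adjusted p = 0.28).

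The remaining named genes with large differences include several of unknown role. YHR139C-A rose in the laboratory from 29.9 and 23.4 through 37.0 and 64.1 and 151 and 149 to 121 and 143 FPKM and lay between 3.64 and 7.97 FPKM in the industrial cultures (difference -1.09 ± 0.16, SE, adjusted p = 0.00303). YOL013W-B rose in the laboratory from 4.73 and 4.55 to 33.7 and 56.3 FPKM and was listed at 0 in all 8 industrial libraries, so its slope there carries no information. YNL103W-A went from 1.33 and 0.747 to 9.22 and 11.9 FPKM in the industrial cultures and from 111 and 113 to 58.3 and 38.4 FPKM in the laboratory (difference 1.17 ± 0.21, SE, adjusted p = 0.0096). YDR274C had slopes of -0.22 and 0.60, and YJL213W had slopes of 0.45 and -0.31. YNL103W-A, YOL013W-B and YOR318C are outside the R64 annotation used here, so overlaps with other genes were not checked. AQY1, a water channel of spores, was at 149 and 123, 192 and 220.3, 52.9 and 54.8, and 52.0 and 41.0 FPKM at laboratory points 1 to 4, with slopes of -0.65 and 0.19. DAK2, a dihydroxyacetone kinase, had slopes of -0.08 and 0.74 (adjusted p = 0.0291, or 0.036 with the block), and RRT8, a protein of lipid droplets and spore wall formation, had slopes of 0.70 and -0.09. 5 genes with a lower industrial slope were at or below 1 FPKM in every industrial library, and 15 of the 88 and 6 of the 55 had an industrial mean under 10 FPKM. YNL103W-A, YDR274C, DAK2, YJL213W, YHR139C-A and YOL013W-B are among these. They passed the filter on low values only through the laboratory cultures, so their differences carry that limit.

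Short motifs in the 300 bases before the start codon were counted on both strands as a description. The stress response element AGGGG lies in 27.5% of 51 promoters with a higher and 23.0% of 87 with a lower industrial slope, against 22.9% of 5458 tested genes. GATGAG, the core of the PAC motif of ribosome biogenesis genes, lies in 7.84%, 20.7% and 18.4%, and AAAATTT, the core of the RRPE motif, in 17.6%, 17.2% and 25.4%.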

How the data were processed

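RNA was sequenced from 16 retentostat libraries, and 10 chemostat libraries of the series were not used here. The authors deposited FPKM, which were used with no further scaling between libraries. Per the submitters' processing notes and the study's methods, reads were aligned with STAR 2.5.3a to the S288C genome (R64), reads with ambiguous positions were removed, and htseq-count counted the rest in union mode. The study's methods describe strand-specific libraries from both companies, and the strand setting of the counting is not given in the sources used here. The labels name Novogene for all libraries, whereas the methods name Baseclear (single-end) for the laboratory and Novogene (paired-end) for the industrial libraries. The authors used edgeR for their own tests, which were not used here.

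Each of the 16 files held 6600 genes, of which 5917 matched the R64 annotation and 683 did not, and 0 of 120 pairs of libraries were identical. Reads on genes were recovered from FPKM and gene length, and 99.7% to 99.9% of genes with up to 1000 reads gave whole reads within 0.05. Values were taken as log2(FPKM + 1), so that changes of genes with low values are understated. Genes were tested where FPKM averaged 10 or more over these libraries (5613). limma 3.58.1 in R 4.3.3 fitted a slope on point order and an intercept for each condition in 1 model over all 16 libraries, with moderated variances and no replicate block. Slope differences were called at a Benjamini-Hochberg adjusted p under 0.03 and slopes within a condition at the same limit with R2 above 0.8. Adjusted p-values in the text come from these fits. Tables and figures were made with python 3.11.15, numpy 2.4.6, pandas 2.3.3 and matplotlib 3.10.9, and the fit was tested on simulated data.

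The culture prefix in the labels pairs the libraries of a vessel. Differences between cultures 1 and 2 correlated between points at -0.01 to 0.72 in the laboratory and -0.05 to 0.23 in the industrial libraries, so the fit with culture as a replicate block was an alternative. Alternatives changed the pseudocount, the filter, the scaling, the block, the unit of replication, the points, their positions, the scale and the limit, and left out libraries and cultures. The setting without the 2 libraries that stand apart was chosen after seeing the data.

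Named genes were the 10 largest called differences on each side whose culture slopes did not overlap, the genes called in both conditions with opposite signs, the 5 strongest shared rises and the 5 strongest shared falls, PDR12, PMA1 and PMA2, and up to 2 called members of each list. The members and lists were chosen with earlier results of these data known, and the zinc list and motif after values were seen. Promoter letters were read from the R64 genome.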

Additional observations from a re-analysis of the deposited data

Results flagged for a closer look

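The slope differences of 36 named genes passed the test of the difference between conditions itself. With the higher slope in the industrial cultures, these were YNL103W-A (1.17), ATO2 (1.08), PDR12 (1.03), AQY1 (0.84), DAK2 (0.82), DIP5 (0.82), YDR274C (0.82), SVS1 (0.82), THR1 (0.76) and AGA1 (0.74), all in log2(FPKM + 1) per sampling point. On the same side were YAT1 (0.67), MRPL4 (0.67), EXG1 (0.59), MRP4 (0.55), HSP60 (0.54), ZWF1 (0.49), HXT7 (0.43), ARG3 (0.41), KNH1 (0.37), SIC1 (0.35) and PRM5 (0.31).

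With the lower slope in the industrial cultures were HPF1 (-1.47), YOL013W-B (-1.11), YHR139C-A (-1.09), MEP2 (-0.82), TIR2 (-0.80), RRT8 (-0.79), ZRT1 (-0.78), YJL213W (-0.77), ENB1 (-0.77) and ZPS1 (-0.76). SUI1 (-0.50), SDP1 (-0.48), ATG27 (-0.42), SMF3 (-0.40) and ALP1 (-0.38) had the smaller differences of this side. 9 of the 36 had an industrial mean under 10 FPKM and passed the filter on low values only through the laboratory cultures. They were YNL103W-A, DAK2, YDR274C, YOL013W-B (0 in all 8 industrial libraries), YHR139C-A, ZRT1 (at most 0.201 FPKM), YJL213W, ALP1 and ATG27, and the slopes of YOL013W-B and ZRT1 there hold no information. With 2 cultures per condition no group was large enough for a check of single samples.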

How the results depend on the processing

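Counts of called genes moved with the processing, and all 143 called slope differences kept their sign in every alternative in which the gene was tested. The alternatives share libraries with the call, so the kept signs are no independent support. The slope difference was called for 55 genes on the higher and 88 on the lower side of the industrial cultures. The higher count was 106 with median scaling, 106 with quantile normalization, 278 with slopes per culture as the replicate, 0 with points 2 to 4 only, 3 at an adjusted p under 0.005 and 272 without the 2 libraries that stand apart. The lower count was 163 without a filter, 56 with a mean FPKM of at least 10 in each condition, 464 with slopes per culture, 0 with points 2 to 4, 7 at the stricter limit and 655 without the 2 libraries. Laboratory rises (537) were 288 with median scaling, 307 with quantile normalization, 172 with points 2 to 4 and 1201 without the 2 libraries. Laboratory falls (86) were 229, 235, 40 and 256 in the same settings. Industrial rises (133) were 7 with points 2 to 4, 53 at the stricter limit and 402 without the 2 libraries. Industrial falls (57) were 93 with median scaling, 118 with quantile normalization, 91 with slopes per culture, 3 with points 2 to 4, 16 at the stricter limit, 111 with each condition fitted alone and 336 without the 2 libraries. Leaving out 1 library or culture gave 0 to 166 higher and 1 to 364 lower differences, 117 to 1143 laboratory rises, 19 to 462 laboratory falls, 2 to 267 industrial rises and 1 to 170 industrial falls. With culture as a replicate block, 39 higher and 76 lower differences were called, 105 of them shared with the 143, and beside the named genes given with a blocked p no other named difference was lost except MRP20 and CCW14 (0.0333 and 0.0356). Of 1207 values of 38 named slope differences under 32 alternatives, 738 kept their direction and side of the limit, 468 kept the direction only, and 1 changed sign, that of PMA1, which was 0.20 with all libraries, -0.15 without laboratory culture 2 and 0.55 without laboratory culture 1. The cause of these changes was not tested beyond the smaller number of libraries or genes that some settings leave.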

Other observations

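HXT4, a glucose transporter, differed between the laboratory cultures as HXT3 did. It was at 37.2 and 398 FPKM in cultures 1 and 2 at point 1, 23.9 and 260.0 at point 2, 64.6 and 121 at point 3, and 124 and 84.5 at point 4, with culture slopes of 0.65 and -0.78. In the industrial cultures HXT4 was at 203 and 191, 154 and 311, 666 and 532, and 624 and 547 FPKM. GLN1, the glutamine synthetase, was at 525 FPKM in the industrial library that stands apart and between 1826 and 2643 in the other 7 industrial libraries. HSP12, a membrane-protecting stress protein, had slopes of 0.32 and 0.32, a difference of 0.00 ± 0.14 (SE).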
